A study of Homo sapiens with 2 samples.

Results

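The genes described here are 10 members of the BCL2 family, 5 of them survival genes (MCL1, BCL2, BCL2L1, BCL2L2 and BCL2A1) and 5 death genes (BAK1, BCL2L11, BID, BAD and BIK), out of 19819 protein-coding genes examined for ING5 occupancy. A gene was counted as having a promoter peak where the summit of an ING5 peak lay within 1000 bp of any of its annotated transcription start sites in GRCh38. The members are a fixed list of named genes, drawn up with earlier results of these data known. ING5 was profiled by ChIP-seq, with 1 library made with an antibody against ING5 from Proteintech and 1 input DNA library without antibody, both from untreated HepG2 cells, a human liver cancer line. The purpose given for the study is to find transcriptional targets of ING5. The ChIP library held 12416160 fragments and the input library 9915170, and the input entered only as the control of the 1 peak list of 8608 peaks. With 1 library of each kind no value has a replicate, no difference was tested, and Poisson intervals cover counting error only. Binomial intervals on gene lists treat the genes as random draws, although the lists were chosen, and serve as description only. None of 18 hepatocyte markers, among them ALB, AFP, APOA1 and HNF4A, had a promoter peak (0%, exact binomial 95% interval 0 to 18.5), beside 30.9% of all protein-coding genes, so the peak list gives no positive check of the labelled liver origin. The header of the peak list names its ChIP library differently from the sample labels, and the tie between them rests on the deposit.

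BCL2 family proteins set the threshold of the mitochondrial pathway of apoptosis. The survival proteins MCL1, BCL2, BCL-XL (from BCL2L1), BCL-w (from BCL2L2) and A1 (from BCL2A1) hold back the pore formers BAX and BAK (from BAK1). BH3-only proteins such as BIM (from BCL2L11), BID, BAD and BIK are death members that bind the survival proteins, and some also activate the pore formers directly. Mouse hepatocytes depend on BCL-XL and MCL1, and MCL1 is a short-lived protein whose level follows its synthesis closely. ING5 recognizes histone H3 trimethylated at lysine 4, a mark of active starts, through its plant homeodomain, and works within complexes of MYST-type histone acetyltransferases.

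The promoter sequences of 7 members were given by RefSeq (GRCh38.p14), 13 promoters in all; MCL1, BCL2L2 and BIK had no entry. The 250 bases before 5 of these starts are printed here, read 5′ to 3′ with every CpG dinucleotide in capitals, since they differ in CpG content. The canonical BCL2L1 promoter lies wholly inside an ING5 peak, the upstream BCL2L1 promoter and the BCL2L11 promoter lie beside peaks, and those of BCL2 and BCL2A1 have none nearby.
BCL2L1 canonical start, chr20:31722869-31723118, minus strand: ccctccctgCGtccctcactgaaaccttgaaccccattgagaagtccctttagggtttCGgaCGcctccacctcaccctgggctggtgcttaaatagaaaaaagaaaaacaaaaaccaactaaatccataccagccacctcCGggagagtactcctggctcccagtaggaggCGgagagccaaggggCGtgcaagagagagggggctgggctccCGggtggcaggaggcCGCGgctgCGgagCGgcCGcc
BCL2L1 upstream start, chr20:31723964-31724213, minus strand: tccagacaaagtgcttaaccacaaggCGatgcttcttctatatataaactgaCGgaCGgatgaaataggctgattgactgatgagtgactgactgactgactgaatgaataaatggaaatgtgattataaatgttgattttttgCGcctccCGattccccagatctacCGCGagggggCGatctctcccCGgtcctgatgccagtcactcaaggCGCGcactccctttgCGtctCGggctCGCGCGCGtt
BCL2L11 canonical start, chr2:111120664-111120913, plus strand: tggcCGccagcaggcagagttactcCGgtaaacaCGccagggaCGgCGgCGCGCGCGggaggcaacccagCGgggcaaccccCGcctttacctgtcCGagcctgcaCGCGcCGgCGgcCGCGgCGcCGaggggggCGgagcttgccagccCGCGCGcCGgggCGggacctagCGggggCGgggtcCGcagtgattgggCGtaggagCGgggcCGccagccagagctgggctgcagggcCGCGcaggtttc
BCL2 canonical start, chr18:63319770-63320019, minus strand: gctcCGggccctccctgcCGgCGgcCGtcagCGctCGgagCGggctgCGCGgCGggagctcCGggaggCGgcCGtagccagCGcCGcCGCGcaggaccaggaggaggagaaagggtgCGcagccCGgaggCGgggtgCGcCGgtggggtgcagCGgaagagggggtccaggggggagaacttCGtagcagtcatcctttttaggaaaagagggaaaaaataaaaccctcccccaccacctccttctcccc
BCL2A1 canonical start, chr15:79971197-79971446, minus strand: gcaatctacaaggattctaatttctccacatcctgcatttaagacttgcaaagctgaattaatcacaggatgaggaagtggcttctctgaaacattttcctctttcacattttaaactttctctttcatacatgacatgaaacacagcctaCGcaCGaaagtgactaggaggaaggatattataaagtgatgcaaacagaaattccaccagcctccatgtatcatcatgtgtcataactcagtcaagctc
These stretches hold 12, 17, 34, 24 and 2 CpG dinucleotides in the order shown.

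A promoter peak was found at 4 of the 10 members, MCL1 and BCL2L1 among the 5 survival genes and BCL2L11 and BAD among the 5 death genes. The share of 40% (exact binomial 95% interval 12.2 to 73.8) stood beside 30.9% of all protein-coding genes (6126 of 19819), which lies inside that interval. Survival and death members had peaks equally often, 2 of 5 each. The survival peaks were the higher ones in pileup: they had 28 and 20 fragments at the summit. The 4 death peaks, 3 of them at BCL2L11, had 11, 11, 12 and 13. In fold enrichment over local background only MCL1 stood apart, at 15.6. BCL2L1, at 7.30, lay below BAD at 7.55 and near the highest BCL2L11 peak at 7.01. Over all 6527 promoter peaks the median was 12 fragments (quartiles 10 and 16), so both survival peaks lay above the upper quartile and all 4 death peaks lay between the quartiles. The 95% Poisson intervals of the 6 summits all overlapped, from 18.6 to 40.5 fragments at MCL1 down to 5.49 to 19.7 at the lowest BCL2L11 summits.

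**Figure D1:**
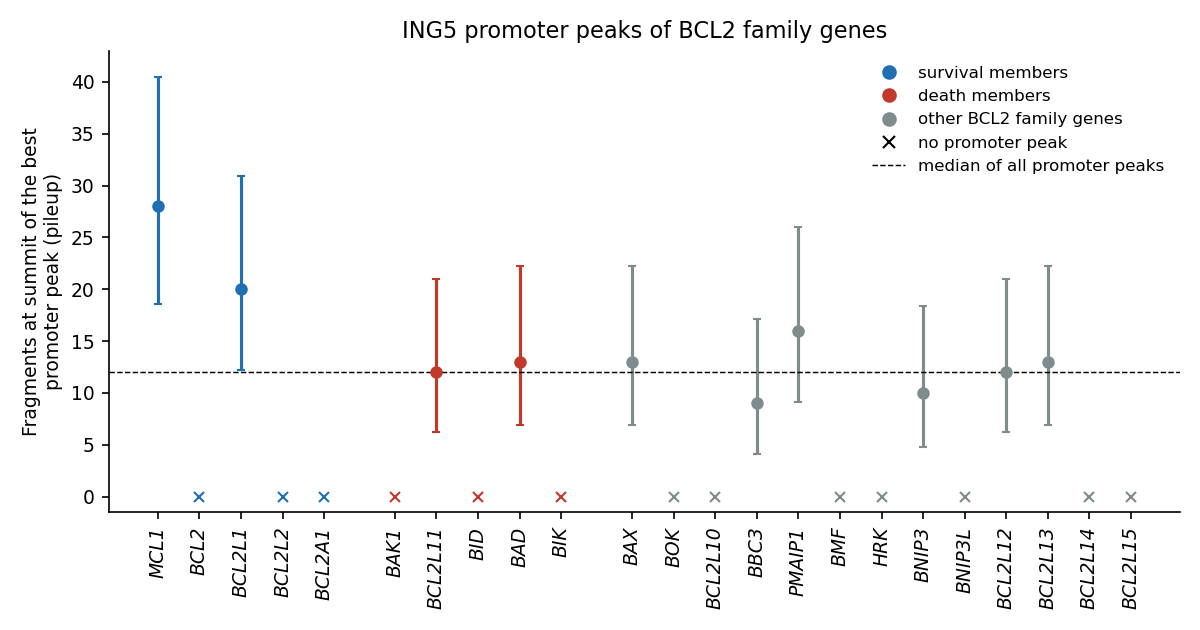
Fragments at the summit of the most significant promoter peak (vertical axis) of each survival, death and other BCL2 family gene, with exact Poisson 95% intervals as bars; a cross marks a gene with no promoter peak on the list, which is not a measured 0. MCL1 with 28 fragments and BCL2L1 with 20 stand highest, and the dashed line is the median of 12 over all promoter peaks.

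MCL1 carried the strongest peak of the members and ranked 149 of 8608 by −log10 p, the authors' measure of significance. The peak covered 1377 bp at chr1:150578225-150579601, with 28 fragments at the summit and a fold enrichment, the ratio of pileup to local background with 1 fragment added to both, of 15.6. It was higher than 97.3% of promoter peaks in pileup and 98.6% in fold enrichment, and longer than 97.8%. Among 129 promoter peaks within 2 fragments of its height the median length was 901 bp (quartiles 660 and 1261), so the MCL1 peak was also long for its height. MCL1 is on the minus strand, and its peak began 9 bp downstream of the canonical start at 150579610 and ended 1385 bp downstream. The summit lay in the coding part of exon 1, 730 bp downstream of that start. It was downstream of all 6 annotated MCL1 starts within 1000 bp, by 597 to 858 bp. By length, 688 bp of the peak lay in coding sequence of exon 1, 351 bp in intron 1, 248 bp in coding exon 2, 71 bp in the 5′ UTR and 19 bp in intron 2. No other gene of any type had a start within 1000 bp of the summit.

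BCL2L1, which encodes BCL-XL, had the next highest summit, with 20 fragments (Poisson interval 12.2 to 30.9) at chr20:31722741-31723392. In pileup this peak stood above 88.9% of promoter peaks, but in fold enrichment, at 7.30, above only 60.5%. The difference came from its local background of 1.88 fragments, against the 0.853 that stood behind MCL1, BCL2L11 and BAD and was the lowest on the list. Only 4.96% of promoter peaks had a background as high as that of BCL2L1. Its length of 652 bp was close to the median of 642.5 bp for 640 promoter peaks of like height. The summit lay between groups of alternative starts: it was upstream of 5 annotated starts, by 188 to 612 bp, and downstream of 5 others, by 368 to 828 bp. Relative to the canonical start at 31722868 it was 293 bp upstream. The peak reached from 524 bp upstream to 127 bp downstream of that start and so covered the whole canonical promoter printed above. The upstream promoter printed beside it, of the start at 31723963, was not covered at all.

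BCL2L11, which encodes the BH3-only protein BIM, was the member with the most peaks. Its 3 promoter peaks had 11, 11 and 12 fragments and lengths of 275, 767 and 372 bp, at chr2:111121061-111121335, chr2:111121628-111122394 and chr2:111122898-111123269. Of 6126 genes with a promoter peak, 239 (3.90%) had 3 or more and 77.0% had 1. All 3 stood over the genome-wide background, with fold enrichments of 6.47, 6.47 and 7.01, near the median of 6.66 for promoter peaks. Together they spanned 2209 bp downstream of the canonical start at 111120914, with gaps of 292 and 503 bp between them. The summits lay 280, 820 and 2266 bp downstream of that start, all in intron 1 of the canonical transcript. The peak in the middle was longer than 86.7% of promoter peaks although its height was above only 29.3%. Among 3547 promoter peaks within 2 fragments of 11 the median length was 311 bp (quartiles 227 and 443.5). The peak farthest downstream counts as a promoter peak through other starts: the nearest, 486 bp before its summit, belongs to a transcript annotated as incomplete at its 5′ end. The nearest complete start lay 566 bp downstream of that summit, where 7 transcripts of BCL2L11 begin.

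BAD, a BH3-only gene whose protein is held inactive by phosphorylation, had 1 peak, but not at its main promoter. The peak covered 332 bp at chr11:64271579-64271910, with 13 fragments (6.92 to 22.2) and 7.55-fold enrichment. Its height was above 52.2% of promoter peaks and its length above 43.4%. The summit lay 183 bp downstream of the start of a shorter annotated transcript, BAD-205, and 12980 bp downstream of the canonical start at 64284665. In the canonical transcript the summit fell in the coding part of exon 3, which held 191 bp of the peak, with 107 bp in intron 2 and 34 bp in intron 3. No peak lay within 1000 bp of the canonical start, so BAD is a member with a peak only when alternative starts are counted. No other gene had a start within 1000 bp of the summit.

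**Figure D2:**
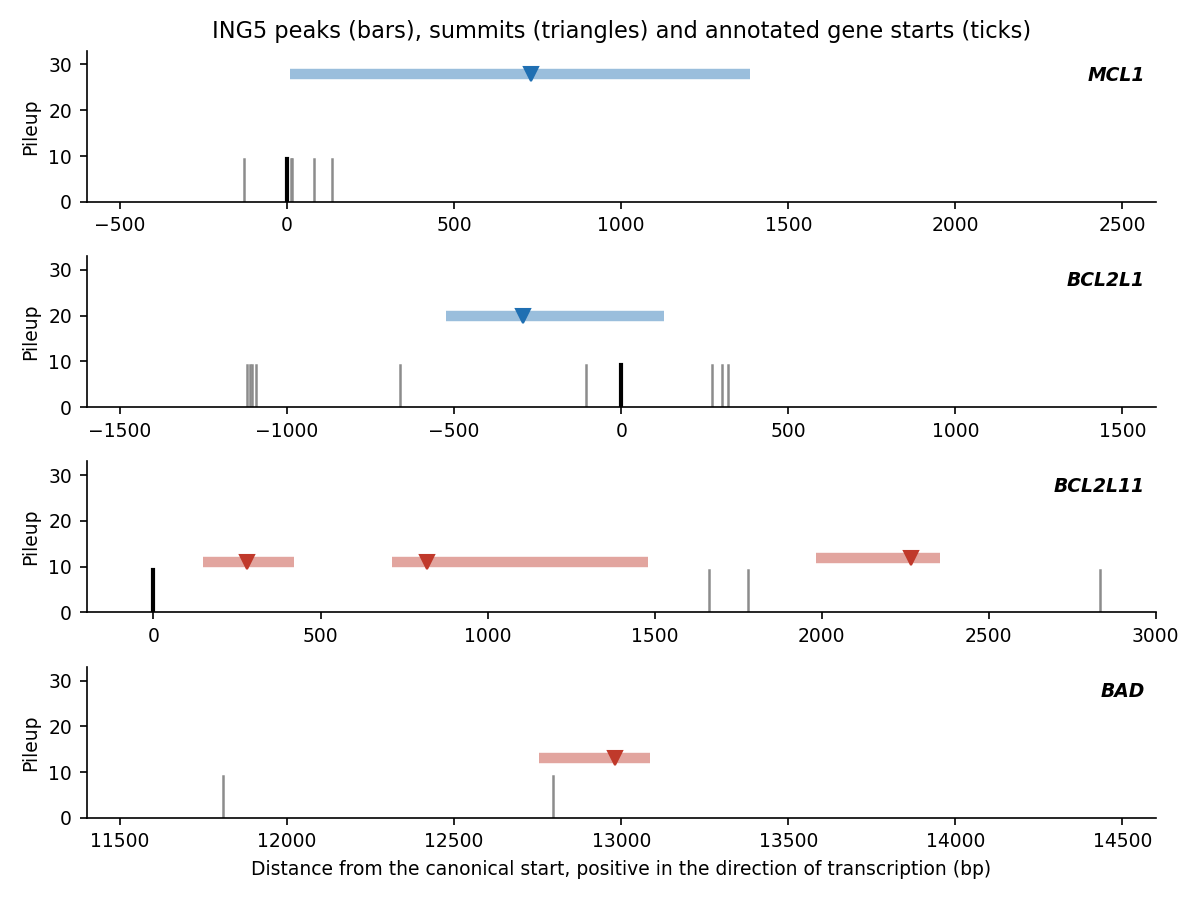
Extent (bars), summit (triangles) and pileup (vertical axis, fragments) of the promoter peaks of MCL1, BCL2L1, BCL2L11 and BAD against distance in bp from each gene's canonical start, with annotated starts as ticks (black, canonical). The MCL1 summit lies downstream of the starts shown, the BCL2L1 summit between groups of starts, the 3 BCL2L11 peaks in a row downstream, and the BAD peak about an alternative start 12797 bp inside the gene.

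By the most significant peak of each gene, 3 of the 4 members had the summit downstream of the nearest start, with BCL2L1 as the exception. For BCL2L11 this rests on a start annotated as incomplete, and its best summit lay 566 bp upstream of the nearest complete start. By the nearest start of any kind, the summit was downstream at 71.3% of all 6126 genes with a promoter peak. Their median summit position was 163 bp downstream (quartiles 40 bp upstream and 366 bp downstream). By that measure MCL1, at 597 bp, and the best BCL2L11 summit, at 486 bp, lay farther downstream than the upper quartile. A less significant BCL2L11 summit, at 820 bp, also lay beyond it, although the quartiles count only the best peak of each gene. Among the 3 genes whose best peak was most like that of MCL1 in height, length and position, by Euclidean distance of standardized values over the 6126 genes, were ENO1 and TPRA1. The glycolytic enolase gene ENO1 had 29 fragments, 1544 bp and a summit 628 bp downstream of its nearest start. TPRA1 had 28 fragments, 1307 bp and a summit 466 bp downstream.

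**Figure D3:**
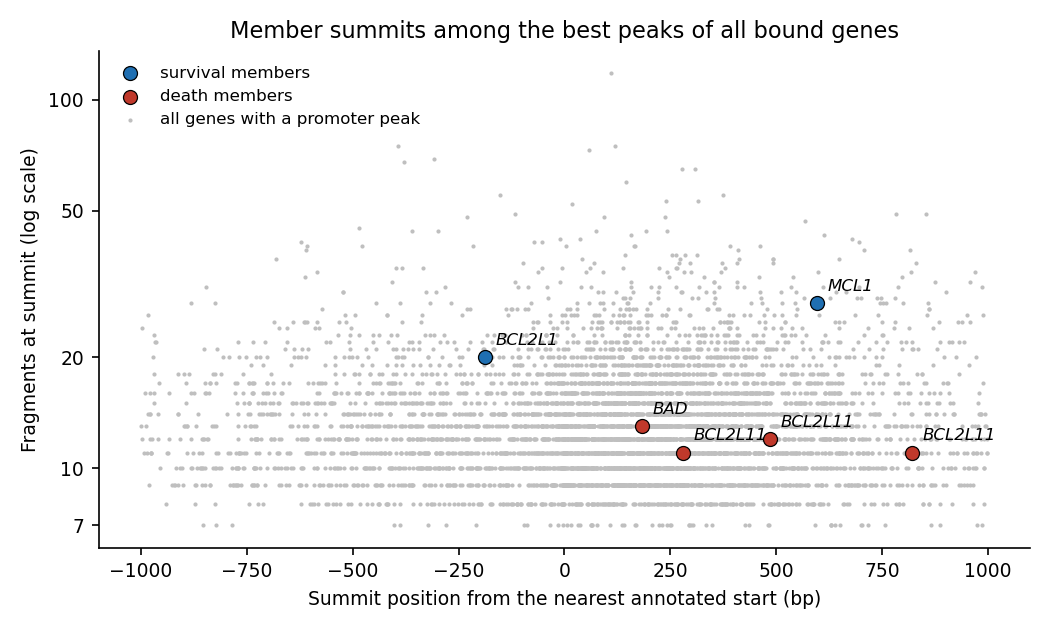
Pileup (log scale, fragments) against the position of the summit from the nearest annotated start (bp, positive downstream) for the 6 member peaks and, in grey, the most significant promoter peak of each of 6126 genes. MCL1 and BCL2L1 lie in the upper part of the cloud with 28 and 20 fragments. The BCL2L11 and BAD summits have 11 to 13, where the cloud is dense in height, with the BCL2L11 summits at 486 and 820 bp toward its downstream side.

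No promoter peak was listed for BCL2, BCL2L2 and BCL2A1 among the survival genes, or for BAK1, BID and BIK among the death genes. The nearest summit to a start of BCL2L2 was 12884 bp away, the shortest such distance of the 6, and that to BID was 102145 bp away, the longest. For BCL2, BCL2A1, BAK1 and BIK the distances were 46773, 47807, 41498 and 31680 bp. None of these 6 genes held a summit anywhere between its annotated ends, including the long body of BCL2. The lowest summit listed over the genome-wide background had 7 fragments, so occupancy below that height was not detectable at this depth.

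The member promoters lowest in CpG content had no peak, but above them CpG content did not separate promoters with a peak from those without. The ratio of observed to expected CpG over the 300 bases from 250 before to 50 after the start was 0.940 at the BCL2L11 promoter, and 0.569 and 0.986 at the canonical and upstream BCL2L1 promoters, all 3 with a summit within 1000 bp. It was 0.163 at the BCL2A1 promoter and 0.282 at that of BAK1, the pore-forming member, both without a peak. The BCL2 promoter, at 0.829, and 4 of 5 BID promoters, at 0.694 to 0.976, also had no peak, nor had the BAD promoters at 0.616 and 0.675. Over 21419 RefSeq promoters of protein-coding genes, a summit lay within 1000 bp at 40.3% of those with a ratio of 0.6 or more and at 6.07% of those below it. In the class from 0.8 to 1.0, which holds BCL2L11, BCL2, BID and upstream BCL2L1 promoters, the share was 42.1% (40.9 to 43.3), so a CpG-rich promoter without a peak was the more frequent case there. In the class from 0.4 to 0.6, which holds the canonical BCL2L1 promoter, it was 14.3% (12.9 to 15.9). In the class under 0.2, which holds BCL2A1, it was 1.51% (1.10 to 2.03).

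**Figure D4:**
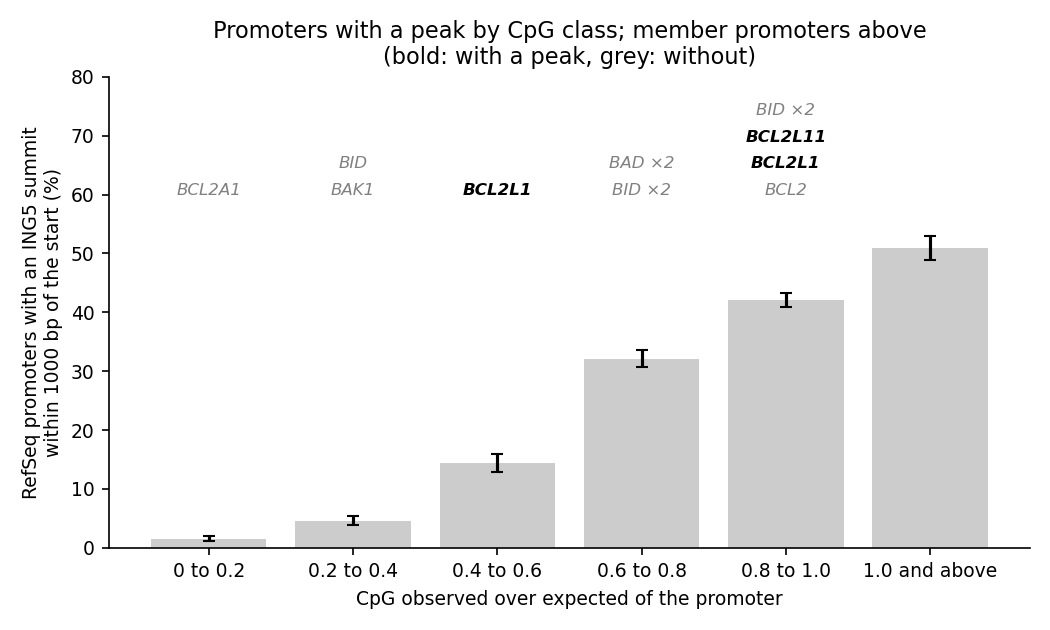
Share of RefSeq promoters with an ING5 summit within 1000 bp of the start (vertical axis, %) by the ratio of observed to expected CpG (horizontal axis), with exact binomial 95% intervals; the member promoters of each class are named above the bars, in bold where they have a summit within 1000 bp. The share is 1.51% in the lowest class and 51.0% in the highest, and the class from 0.8 to 1.0 holds member promoters both with and without a peak.

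Short motifs were searched on both strands of the same 300 bases. Several BID promoters overlap each other, as do the BAD promoters, so the same motif copy can count more than once. GGGCGG, the GC box, was present in 9 of the 13 member promoters, of BAD, BAK1, BCL2L1, BCL2L11 and BID, and in 56.9% of all 21419 promoters. The BCL2L11 promoter held it 3 times, 118, 91 and 75 bp before the start. CCGGAAG, an ETS-type motif, occurred in 1 member promoter, the upstream one of BCL2L1, downstream of its start, and in 12.9% of all promoters. CCAAT was found in 4 member promoters, of BAD, BAK1 and BCL2L11, and in 34.8% of all. TATAAA was found in the BCL2A1 promoter, 70 bp before the start, and in the upstream BCL2L1 promoter, 208 and 125 bp before it, and in 9.40% of all. The palindromic NRF1 motif was in none of the 13 and in 1.49% of all.

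In the rest of the BCL2 family, 6 of 13 genes had a promoter peak, against the same 30.9% of all genes, which made 10 of 23 over the whole family. PMAIP1, which encodes the BH3-only protein NOXA, a partner of MCL1, had the highest, with 16 fragments and 9.17-fold enrichment 422 bp downstream of a start. BAX, the pore former related to BAK1, had 13 fragments in a peak of 715 bp, 196 bp downstream. BNIP3, a mitochondrial BH3-like gene of hypoxia and mitophagy, had 10 fragments 84 bp downstream. BBC3, which encodes the BH3-only protein PUMA, had the lowest, with 9 fragments, 290 bp downstream of an internal start and 4300 bp downstream of the canonical one. BCL2L12 had 12 fragments in a peak that also lay within 1000 bp of a start of IRF3. BCL2L13, a neighbour of BID on chromosome 22, had 2 peaks, the more significant with 13 fragments and shared with ATP6V1E1. BOK, BCL2L10, BMF, HRK, BNIP3L, BCL2L14 and BCL2L15 had none. The summits of these 6 genes had 9 to 16 fragments, below the 20 of BCL2L1 and the 28 of MCL1. Poisson intervals overlapped except between BBC3 (4.12 to 17.1), or BNIP3 (4.80 to 18.4), and MCL1 (18.6 to 40.5). The order differed in fold enrichment, because BCL2L1 has a raised local background. PMAIP1 at 9.17, and BAX and the more significant BCL2L13 peak at 7.55, stood above BCL2L1 at 7.30. BCL2L12, BNIP3 and BBC3 stood below it.

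Wider death pathway genes, from outer membrane channels and cytochrome c release to caspases and their inhibitors, had a promoter peak at 12 of 19. HTRA2, a mitochondrial protease that blocks caspase inhibitors, had 16 fragments in a peak shared with AUP1. VDAC1, an outer membrane channel gene, and CASP2, a caspase gene, had 15 each. The apoptosome gene APAF1 and the cytochrome c gene CYCS had 13 and 12, while the initiator caspase gene CASP9 had no peak; these 3 were named after their values were seen. Regulators of the family had a peak at 8 of 14. The deubiquitinase gene USP9X, whose product stabilizes MCL1, led with 20 fragments and 11.3-fold enrichment over 1091 bp. GSK3B, a kinase gene whose product marks MCL1 for degradation, also had 20 fragments, and DYNLL1, a dynein light chain gene whose product binds BIM, had 18 in a peak shared with SRSF9. The exact binomial intervals were 38.4 to 83.7% for the 12 of 19 and 28.9 to 82.3% for the 8 of 14, beside 30.9% of all genes.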

How the data were processed

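The authors deposited 1 peak list, called by MACS2 (version 2.1.1.20160309) on paired-end fragments against the input, with p limited to 1e-05, per the file headers. Per the submitters' processing notes, the tools also included Bowtie2, deepTools and fastp 0.19.6. The deposited pileup is a coverage signal in fragments, the deposited −log10 p was used for ranking, and the fold enrichment deposited with it is a linear ratio with a pseudocount of 1, from which local background was recovered. Each is the authors' own value of 1 peak. The labels name GRCh37, but 76.0% of summits lay within 1000 bp of a GRCh38 start and 13.7% of a GRCh37 start, so coordinates were read as GRCh38. Starts came from the original positions in GENCODE 44, for every transcript of a protein-coding gene on chromosomes 1 to 22 and X. The assignment was tested on simulated data with 200 summits inside and 200 outside windows, and recovered 200 and 0. Python 3.11.15, pandas 2.3.3 and scipy 1.17.1 were used. The members and lists were chosen with earlier results of these data known. All 10 members and the other family genes are named, with the 3 most significant genes of each further list and the 3 most like the strongest member; exceptions are marked, and 1 of these last is not reported here.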

Additional observations from a re-analysis of the deposited data

How the results depend on the processing

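Under 11 alternatives the counts of 5 gene lists were recomputed 55 times, and 43 stayed within 1.5 times the reported count. A window of 200 bp left 1 survival member (BCL2L1), 1 death member (BAD) and 2 other family genes. It also left 3 of the wider death pathway genes, while 13.5% of all genes had a peak. The 1000 most significant peaks left 1 survival member (MCL1), 0 death members and 0 other family genes. They also left 0 wider death pathway genes and 3 regulators, beside 4.77% of all genes. Canonical starts alone left 1 death member (BCL2L11), beside 27.9% of all genes. Peaks at the genome-wide background alone were an alternative chosen after seeing the data. They left 1 survival member (MCL1) and 6 wider death pathway genes, beside 19.9% of all genes. These settings keep fewer peaks or starts by construction. Starts of protein-coding transcripts alone and complete starts alone, both also chosen after seeing the data, gave the same 4 members. No paired analysis was possible because each group had 1 library. Depth limits what can be listed: 1 library gave no replicate error, and a missing peak does not show absence of ING5.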

Other observations

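For all 10 members, the nearest summit outside their own promoters lay at the promoter of another gene. Most summits lay at promoters, with 76.0% of all summits within 1000 bp of an annotated start, so these positions do not set the members apart. The peak 15457 bp from the nearest BCL2L1 start lay at the start of TPX2, a spindle assembly gene, with 16 fragments. For BCL2L2 the nearest summit was at HOMEZ with 11 fragments, for BCL2 at KDSR with 13, for BAK1 at ITPR3 with 15, for BIK at MCAT with 9, for BID at BCL2L13 with 14, and for BCL2A1 at ST20-MTHFS with 18. Outside their own promoter peaks, MCL1, BCL2L11 and BAD had the nearest summit at ADAMTSL4, BUB1 and ESRRA, with 11, 9 and 10 fragments. These neighbouring genes were named after their values were seen, and no test was run on them.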
